A study of Homo sapiens with 3 samples.

Results

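The genes described here are 45 genes of the primary cilium, the single antenna-like protrusion that many cells build on a centriole. They were selected on the measured ratios of induced over non-induced cells, so those ratios are given as a description and not as a test of the group. Of the 45 genes, 44 had a probe on the array (47 probes) and 42 could be measured, of 16030 genes measured in all. DLD1-TetOff cells, clones of a human colorectal adenocarcinoma line, were hybridised to 3 TORAY 3D-Gene arrays of 2 colours to ask how expression changes when CDX homeoproteins are made. Each array set RNA of induced cells against RNA of its own clone kept non-induced, and the groups, of 1 array each, were Cdx1 12 h, Cdx1 24 h and Cdx2 24 h, without replicates or swapped dyes. All cells carried the pTet-Off regulator and a pTRE-Tight plasmid with FLAG-tagged mouse wild-type Cdx1 or Cdx2. Non-induced cells were grown with 0.5 µg/mL doxycycline (DOX) and induced cells without it, so the loss of DOX itself cannot be told apart from the expressed protein. Per the study's methods, each TetOff line was expanded from a single cell, so clone and expressed protein cannot be told apart either.

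Values are log2 ratios of Cy3 over Cy5 brightness, and Cy3 was likely the induced sample. Sample titles, source names with their dyes and a figure legend of the study point this way. The cell line recorded for each channel points the other way, and every sign would turn if it were right. A gene was called higher or lower where limma's fit over the 3 arrays gave an adjusted p under 0.05 (Benjamini-Hochberg over all genes). The error of this fit is the scatter among arrays of unlike cells, 2 with Cdx1 and 1 with Cdx2. The dyes were not swapped, so a dye effect of a probe that repeats on every array cannot be told apart from induction. In bulk RNA, more cells that express a gene and more RNA per cell cannot be told apart. The SD between probes of the same gene, a guide to technical spread, was 0.204, 0.217 and 0.174 on the log2 scale for Cdx1 12 h, Cdx1 24 h and Cdx2 24 h.

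A primary cilium is assembled and kept up by intraflagellar transport (IFT), in which kinesin-2 carries trains with the IFT-B complex toward the tip and dynein-2 returns them with IFT-A. The BBSome, a coat-like complex of Bardet-Biedl syndrome proteins, rides on these trains and moves membrane receptors, while the transition zone at the base acts as a gate and the basal body is the modified mother centriole. Many epithelial cells can form such a cilium when they leave the cell cycle, and its defects cause the ciliopathies.

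Most of the 42 measured cilium genes had ratios above 0. This held for 34 genes on the Cdx1 12 h array, 35 on the Cdx1 24 h array and 34 on the Cdx2 24 h array, beside 52.1%, 51.5% and 52.9% of all genes. Their median log2 ratios were 0.14, 0.19 and 0.19, against 0.01 on each array for all genes. The ratios ran from -0.15 to 1.51 on Cdx1 12 h, from -0.25 to 2.33 on Cdx1 24 h and from -0.18 to 1.12 on Cdx2 24 h. Over the 3 arrays 22 genes were called higher, beside 18.7% of all genes, and none was called lower, beside 12.1% of all genes. Since the ratios chose the genes, nothing is read from these counts. At least 2-fold higher were 1 cilium gene on Cdx1 12 h (1.09% of all genes), 5 on Cdx1 24 h (2.29%) and 1 on Cdx2 24 h (0.93%). None was 2-fold lower, beside 0.374%, 0.892% and 0.25% of all genes. The 5 genes on Cdx1 24 h were ARL6, TTC21B, IFT20, TTC30A and ARL3, and the 1 on each other array was ARL6 on Cdx1 12 h and BBS2 on Cdx2 24 h, where ARL6 lay just under 2-fold.

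**Figure D1:**
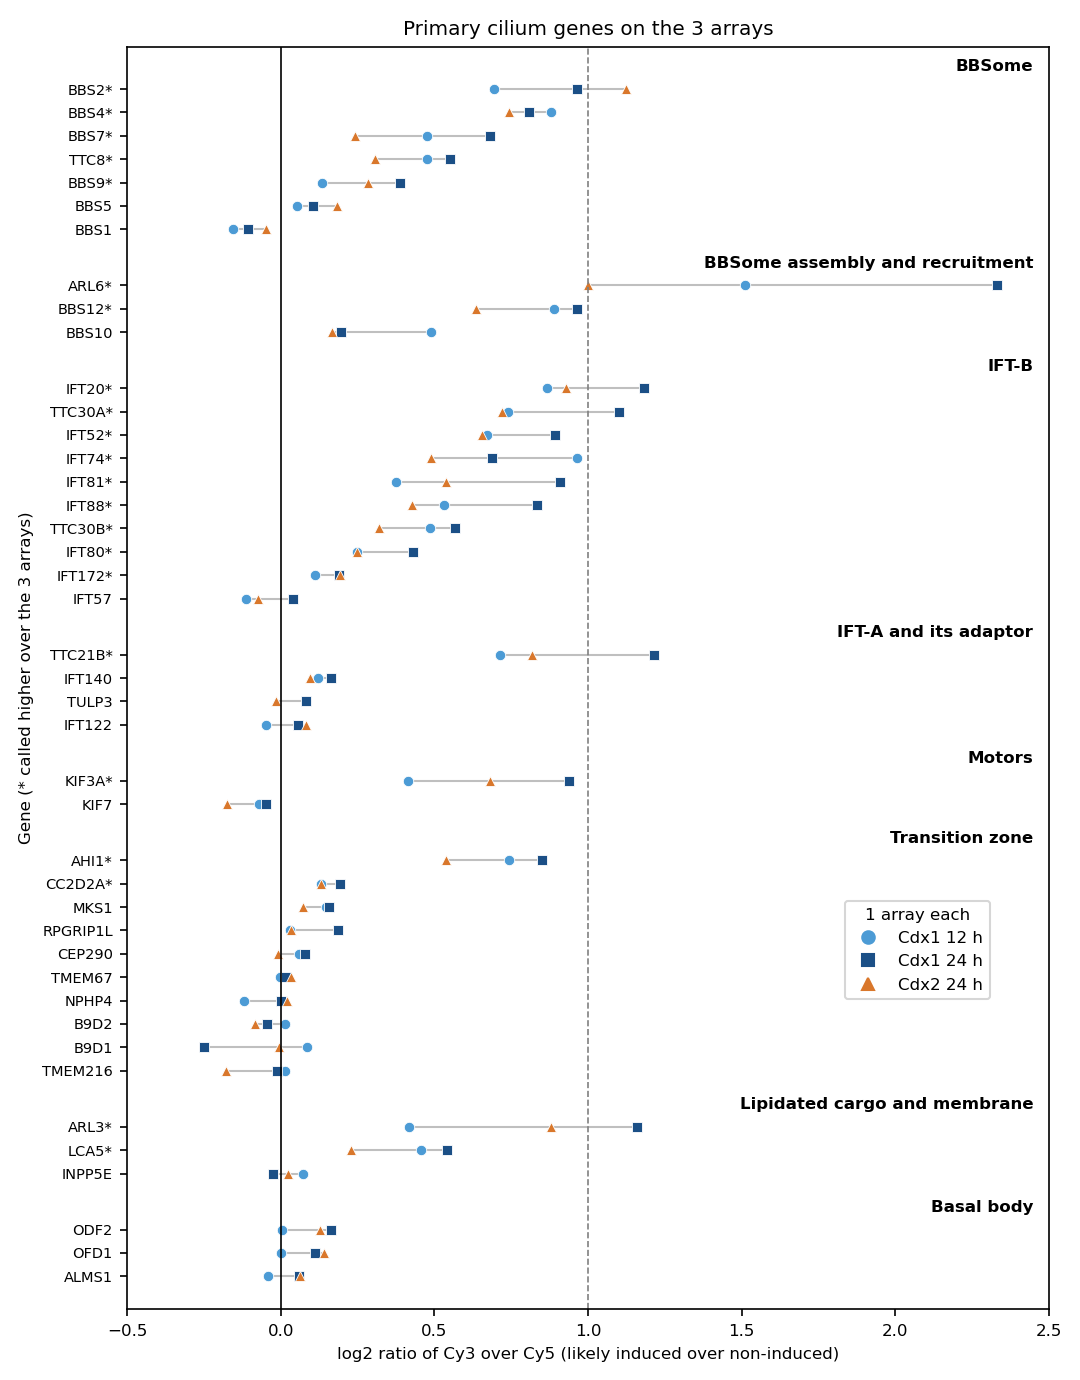
Log2 ratio of Cy3 over Cy5 (x axis) of each of the 42 measured cilium genes (rows, grouped by role) on the arrays for Cdx1 12 h (circle), Cdx1 24 h (square) and Cdx2 24 h (triangle), with a grey line joining the 3 arrays, a solid line at 0, a dashed line at 1 (2-fold) and a star on the 22 genes called higher. ARL6 reaches 2.33 on Cdx1 24 h, most IFT-B and BBSome genes lie right of 0 on all 3 arrays, and most transition zone genes lie near 0.

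The processing sets the size of these ratios. The background correction adds 50 brightness units, which shrinks the ratios of dim probes, and the median cilium gene lay at percentile 42.9 of Cy5 brightness. The median over the cilium genes of their mean ratios was 0.22 as reported, 0.47 with no added units and 0.51 in the log2 values deposited by the authors. The number called higher fell to 11 with 200 added units, to 1 with the background column of the scanner files, and to 12 without the Cdx1 12 h array. None of the 22 was called with the background column, and the 1 gene there was B9D1, at 0.57, whereas its mean ratio was -0.06 as reported.

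The genes that recruit and assemble the BBSome held the highest ratio among the 42 genes. ARL6, a small GTPase also known as BBS3 that recruits the BBSome to membranes, had Cy5 brightness of 37.9, 35.4 and 24.7 on Cdx1 12 h, Cdx1 24 h and Cdx2 24 h. Its Cy3 brightness was 323, 689 and 190 on the same arrays, and loess takes out the part of that gap that probes of like brightness share. The log2 ratios were 1.51, 2.33 and 1.0, a mean of 1.61 ± 0.27 (SE, n = 3 arrays) or 3.06-fold, and the value on Cdx1 24 h was 5.04-fold. ARL6 was thus higher in Cy3, the likely induced channel, on each array, most so on Cdx1 24 h. Its mean was 2.68 with no added units, 2.80 in the deposited values, 0.82 with 200 added units and 0.96 with the background column, and its call was lost under the last 2 and without the Cdx1 12 h array. BBS12, a chaperonin-like protein needed to assemble the BBSome, had ratios of 0.89, 0.96 and 0.64 (mean 0.83 ± 0.08, SE). BBS10, of the same chaperonin-like group, had 0.49, 0.20 and 0.17 (mean 0.28 ± 0.08, SE) and was not called.

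The promoter of ARL6 is shown because ARL6 had the highest ratio among the 42 genes. In RefSeq GRCh38.p14 the first promoter listed spans chr3:97764508-97764807 on the plus strand, from 250 bases before to 50 bases after the start of transcription. Capitals mark a match to GTNNCCNNGGNNAC, a spelling of the X-box bound by RFX factors, which control many ciliary genes. The match starts 24 bases before the start.

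ARL6: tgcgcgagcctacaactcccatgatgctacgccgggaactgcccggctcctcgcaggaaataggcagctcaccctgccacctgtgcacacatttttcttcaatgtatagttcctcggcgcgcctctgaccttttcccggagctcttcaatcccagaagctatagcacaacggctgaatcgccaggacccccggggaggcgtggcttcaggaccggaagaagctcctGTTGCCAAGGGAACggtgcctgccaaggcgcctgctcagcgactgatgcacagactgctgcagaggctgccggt

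The BBSome itself has 8 subunits, and the 7 listed here were all measured. Of these, 5 were called higher (median of their mean ratios 0.44), beside 18.7% of all genes. Nothing is read from this count, as the ratios chose the genes. BBS2 had Cy5 brightness of 143, 143 and 134 and Cy3 brightness of 475, 690 and 701 on Cdx1 12 h, Cdx1 24 h and Cdx2 24 h. Its log2 ratios of 0.70, 0.96 and 1.12 (mean 0.93 ± 0.09, SE) made it the only BBSome subunit at least 2-fold higher on any array. BBS4, with 0.88, 0.81 and 0.74 (mean 0.81 ± 0.04, SE), had nearly the same ratio on all 3 arrays. BBS7, which forms the core of the complex with BBS2 and BBS9, had 0.47, 0.68 and 0.24. TTC8, also known as BBS8, had 0.48, 0.55 and 0.31, and BBS9 had 0.13, 0.39 and 0.28. The call of BBS9 was lost with 200 added units, with the background column and with any array left out. The other 2 subunits were not called. BBS5 lay at 0.05, 0.11 and 0.18, and BBS1, which binds ARL6, lay at -0.15, -0.11 and -0.05. BBS1 was read by 2 probes that stood on opposite sides of 0 at 24 h, at -0.26 and 0.04 on Cdx1 24 h and at -0.18 and 0.08 on Cdx2 24 h, and its mean turned to 0.22 without loess, the brightness-dependent normalization.

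Of 10 IFT-B genes, 9 were called higher (median 0.60), beside 18.7% of all genes, and nothing is read from this count either. IFT20, which also sits at the Golgi and carries membrane cargo toward the cilium, had Cy5 brightness of 450, 436 and 286 and Cy3 brightness of 1583, 2231 and 1213. Its log2 ratios were 0.87, 1.18 and 0.93 (mean 0.99 ± 0.07, SE). The core subunits IFT52, IFT74, IFT81 and IFT88 had mean ratios of 0.74 ± 0.06, 0.71 ± 0.10, 0.61 ± 0.11 and 0.60 ± 0.09 (SE). IFT74 and IFT81 together bind tubulin, the building block of the axoneme. IFT74 was highest on Cdx1 12 h (0.97, 0.69 and 0.49), whereas IFT81 was highest on Cdx1 24 h (0.38, 0.91 and 0.54). IFT52 had 0.67, 0.89 and 0.66, and IFT88, whose loss in mice abolishes cilia, had 0.53, 0.83 and 0.43.

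TTC30A and TTC30B, 2 near-identical copies of the gene for the IFT70 subunit, had ratios of 0.74, 1.10 and 0.72 and of 0.49, 0.57 and 0.32. A probe of one may also read the other, so the split between the copies is uncertain. IFT80, IFT172 and IFT57 had the lowest means. IFT80 had 0.25, 0.43 and 0.25. IFT172, the largest of the complex, had a mean of 0.16 ± 0.04 (SE) over 2 probes, less than the SD between probes. On Cdx1 24 h its probes read 0.42 (Cy5 25.2, Cy3 129) and -0.04 (Cy5 18.7, Cy3 75.3). The latter probe was close to the blank-spot thresholds of 13.6 in Cy5 and 68.1 in Cy3. The calls of IFT80 and IFT172 were lost with 200 added units, with the background column and with any array left out. IFT57 was the only IFT-B gene not called, at -0.11, 0.04 and -0.08, with Cy5 of 37.0, 35.0 and 32.3 well above the blank spots.

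Of 4 genes of IFT-A and its adaptor, only TTC21B was called higher, beside 18.7% of all genes. TTC21B encodes the IFT139 subunit and had Cy5 of 34.4, 36.0 and 24.7, Cy3 of 166, 295 and 163 and log2 ratios of 0.71, 1.21 and 0.82 (mean 0.91 ± 0.11, SE). IFT140 had 0.12, 0.16 and 0.10, IFT122 had -0.05, 0.06 and 0.08, and TULP3, the adaptor that links IFT-A to receptors, had 0.08, 0.08 and -0.02. TTC21B thus stood apart from the other 3 on every array. Among the motors, KIF3A, a subunit of the kinesin-2 that drives IFT toward the tip, had 0.41, 0.94 and 0.68 (mean 0.68 ± 0.11, SE), and KIF7, a kinesin of Hedgehog signalling at the tip, had -0.07, -0.05 and -0.18. DYNC2H1, the heavy chain of dynein-2, was not measured. Its Cy5 brightness of 13.4, 13.0 and 11 lay below the thresholds set by the blank spots, 14.5, 13.6 and 11.5, and its Cy3 brightness of 61.3, 80.7 and 53.3 lay above the Cy3 threshold (62.0, 68.1 and 55.3) only on Cdx1 24 h.

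Among these genes, chosen on their ratios, those of the gate and base had smaller median ratios than those of IFT-B and the BBSome. Lists of other cilium genes, described below, did not show this. Their medians were 0.16 for transition zone and inversin genes and 0.35 for basal body and distal appendage genes. For other IFT and motor genes the median was 0.15, and for other Bardet-Biedl genes 0.12. Of the 10 measured transition zone genes chosen here (median 0.03), AHI1 was called with 0.74, 0.85 and 0.54 (mean 0.71 ± 0.07, SE). CC2D2A was called with 0.13, 0.19 and 0.13 (mean 0.15 ± 0.04, SE). Both are Joubert syndrome genes. AHI1 had Cy5 of 119, 106 and 70.8 and Cy3 of 420, 493 and 264. CC2D2A, with Cy5 of 36.5, 33.0 and 13.9, had ratios below or near the SD between probes. The other 8, which were MKS1, RPGRIP1L, CEP290, TMEM67, NPHP4, B9D2, B9D1 and TMEM216, had means between -0.06 and 0.13, less than the SD between probes. NPHP4 and CEP290 were dim, at percentiles 20.8 and 27.8 of Cy5 brightness, where the 50 added units shrink any ratio. B9D1 and TMEM216 were bright, at percentiles 75.7 and 75.3. TMEM231, of the same gate, had no probe under this symbol. The basal body genes ODF2, OFD1 and ALMS1 had means of 0.10, 0.08 and 0.03 and were not called. ALMS1 was dim as well, at percentile 14.4 of Cy5 brightness, whereas ODF2 and OFD1 lay at percentiles 59.0 and 56.1. CEP164, a distal appendage protein that docks the basal body, was not measured. Its probe lay above the blank-spot threshold only in Cy5 on Cdx1 12 h and Cdx2 24 h.

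ARL3, the GTPase that releases lipid-modified proteins inside the cilium, had Cy5 brightness of 630, 593 and 571. Its Cy3 brightness was 1596, 2926 and 2263, and its log2 ratios of 0.42, 1.16 and 0.88 (mean 0.82 ± 0.15, SE) were lowest at 12 h. LCA5, the gene for lebercilin, which binds the IFT machinery, had 0.46, 0.54 and 0.23. INPP5E, a lipid phosphatase that ARL3 releases inside the cilium, was at 0.07, -0.02 and 0.02, so ARL3 and INPP5E differed.

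Cilium genes with higher ratios on an array tended to have higher ratios on the others too. The genes were chosen on these ratios, and the correlation over all genes was not computed. Dye effects of the probes, which the arrays would share, cannot be told apart from a shared response. Pearson's r over the 42 genes was 0.91 between Cdx1 12 h and Cdx1 24 h, 0.85 between Cdx1 12 h and Cdx2 24 h and 0.91 between both arrays at 24 h, given without a p because genes are not independent and the Cdx1 arrays share a clone. On Cdx1, 35 of 42 genes had a higher ratio at 24 h than at 12 h, beside 52.6% of all genes, with a median difference of 0.09. These genes were chosen on their ratios, so nothing is read from the count of 35. Over all genes, 2.29% were at least 2-fold higher on Cdx1 24 h, against 1.09% on Cdx1 12 h. No cilium gene differed by 1 or more between these hours, beside 0.0873% of all genes higher and 0.162% lower at 24 h. The widest differences were 0.82 in ARL6, 0.74 in ARL3, 0.53 in IFT81 and 0.53 in KIF3A. B9D1, BBS10 and IFT74 went the other way, at -0.34, -0.29 and -0.28.

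At the matched hour of 24 h, 31 of 42 cilium genes had a lower ratio with Cdx2 than with Cdx1, beside 50.7% of all genes, with a median difference of -0.11. Nothing is read from the count of 31 either, as the ratios chose the genes. Over all genes, 0.93% were at least 2-fold higher on Cdx2 24 h, against 2.29% on Cdx1 24 h. ARL6 had the widest difference, -1.33, and was the only one past 1 (0.131% of all genes lower and 0.137% higher). BBS7, IFT88, TTC21B, TTC30A and IFT81 followed at -0.44, -0.41, -0.40, -0.38 and -0.37, whereas BBS2 was higher with Cdx2 by 0.16 and B9D1 by 0.24. The ratio with Cdx2 minus the mean of the Cdx1 arrays ran from -0.92 (ARL6) to 0.29 (BBS2) over the cilium genes. In limma, the error of this contrast rests on 1 degree of freedom. That error is the gap between Cdx1 24 h and Cdx1 12 h and not a spread of replicates, so no call is read from it. The study states that Cdx1 was induced faster than Cdx2 in these lines, so hours and amounts of protein need not match.

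**Figure D2:**
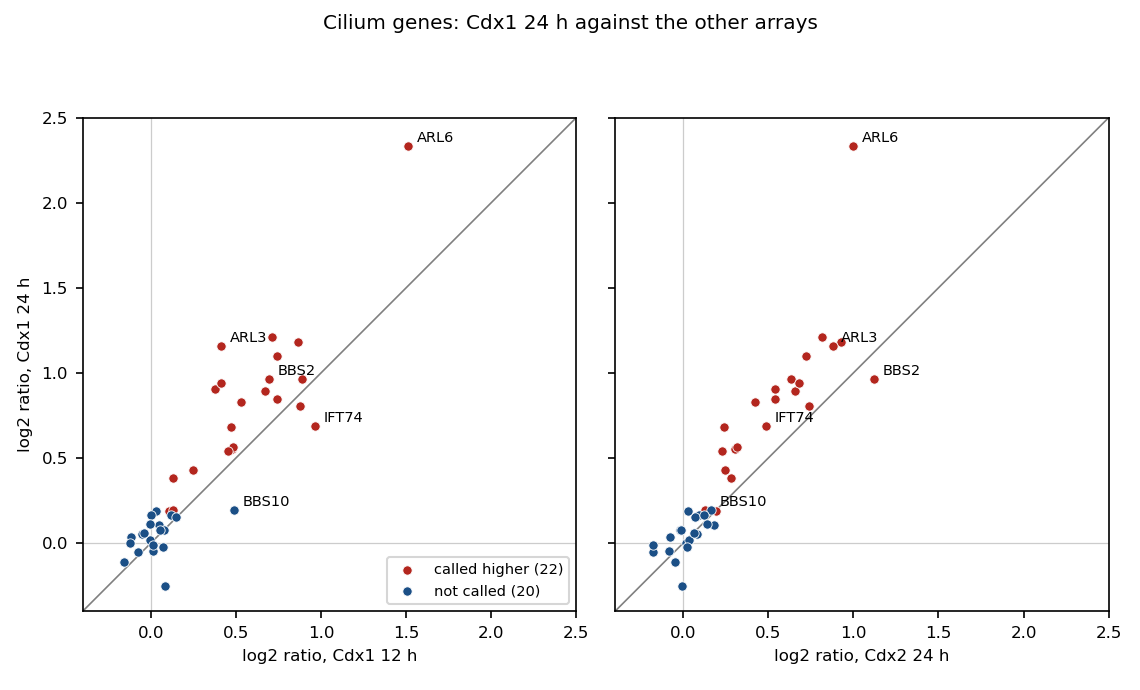
Log2 ratio on Cdx1 24 h (y axis) against Cdx1 12 h (left) and Cdx2 24 h (right) for the 42 cilium genes, red where called higher and blue where not, with a line where both arrays are equal. ARL6 lies farthest above the line in both panels, BBS2 lies below it against Cdx2, and IFT74 and BBS10 lie below it against 12 h.

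The non-induced clones were also compared at 24 h through their Cy5 brightness. Cilium genes differed between the Cdx2 and the Cdx1 clone by -0.49 (CC2D2A) to 0.38 (BBS1) on the log2 scale, with a median of -0.04, beside an SD of 0.265 over all genes. None differed by 1 or more, beside 0.343% of all genes higher and 0.443% lower in the Cdx2 clone. ARL6 was at -0.26, beside -1.33 between its ratios at 24 h. IFT20 was at -0.45, beside -0.25 between its ratios. Cy5 is also the denominator of each ratio, so the gaps in Cy5 and in ratio are not separate measures. The ARL6 probe was dim, with Cy5 brightness of 35.4 on Cdx1 24 h and 24.7 on Cdx2 24 h. The units added in the background correction shrink a gap between such values. How far the clones differed in ARL6 is thus not read from the -0.26.

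Genes with dim and with bright probes both reached high ratios, as ARL6 lay at percentile 36.8 and ARL3 at percentile 88.5 of Cy5 brightness.

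**Figure D3:**
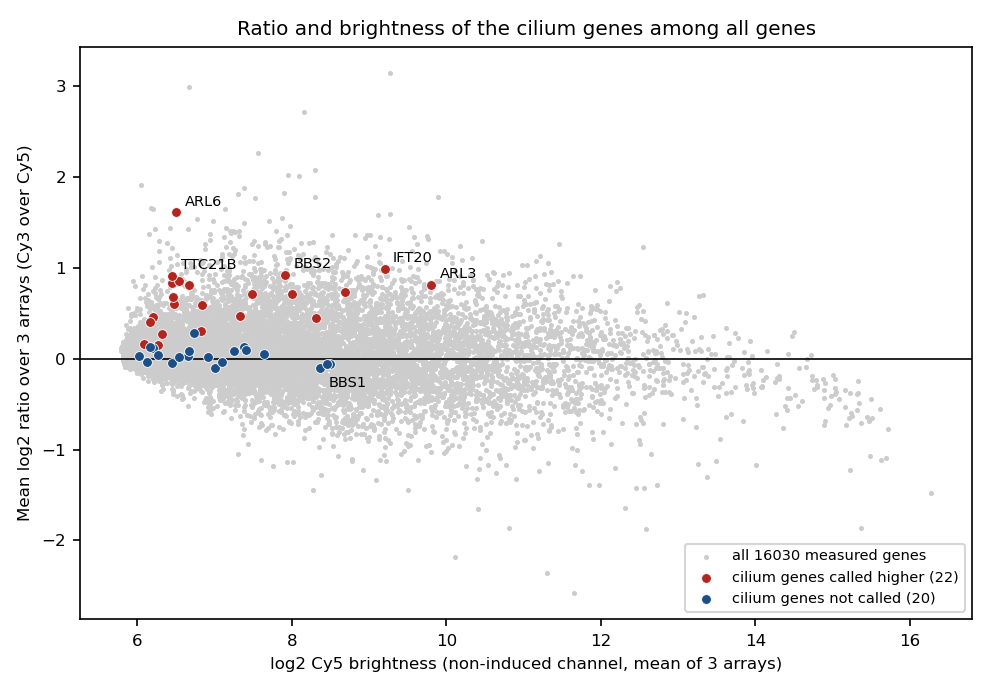
Mean log2 ratio over the 3 arrays (y axis) against mean log2 Cy5 brightness (x axis) for all 16030 measured genes (grey), the 22 cilium genes called higher (red) and the 20 not called (blue). ARL6 at 1.61 has a dim probe, ARL3 and IFT20 have bright ones, and the genes not called lie close to 0.

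Promoter sequences were listed in RefSeq GRCh38.p14 for 42 of the 45 cilium genes, and BBS9, TMEM67 and TTC30B had no unambiguous entry. Windows of 300 bases were searched on both strands for 3 words. GTTGCC is the spelling of 1 arm of the X-box, GTNNCCNNGGNNAC is the full X-box of inverted arms, whose first arm can overlap the former, and TTTATG is found in CDX binding sites. GTTGCC was in a promoter of 18 of 42 cilium genes (42.9%) and of 16.4% of all measured genes with a listed promoter. The 42 include DYNC2H1, TMEM231 and CEP164, which were not measured and which all held GTTGCC. It was held by 6 of 20 genes called higher (30%) and by 9 of 19 measured and not called (47.4%). The full X-box was in 7 of 42 (16.7%), against 2.97% of measured genes, in 3 of 20 called higher (15%) and in 3 of 19 not called (15.8%). With 1 more base left free it was in 11 of 42 (26.2%), against 6.67%. TTTATG was in 3 of 42 (7.14%), against 9.58% of measured genes, and in 1 of 20 called higher, IFT74. The other cilium genes that held it, DYNC2H1 and TMEM231, were not measured. Of all 35116 listed promoters 12.2%, 2.08% and 10.6% held these 3 words. A match is a description of letters and not a bound site.

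The full X-box, in capitals, is shown in windows of the other genes called higher that held it, TTC30A (chr2:177618707-177618760, minus strand, listed as IFT70A) and AHI1 (chr6:135497775-135497828, minus strand), and of the genes that held it and were not called, IFT57 (chr3:108222421-108222474, minus strand), B9D1 (chr17:19378073-19378126, minus strand) and ODF2 (chr9:128455940-128455993, plus strand).
TTC30A: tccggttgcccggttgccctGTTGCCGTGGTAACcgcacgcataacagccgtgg
AHI1: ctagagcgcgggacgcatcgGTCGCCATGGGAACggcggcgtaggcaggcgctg
IFT57: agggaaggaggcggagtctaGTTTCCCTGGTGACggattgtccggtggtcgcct
B9D1: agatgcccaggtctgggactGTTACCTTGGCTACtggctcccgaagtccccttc
ODF2: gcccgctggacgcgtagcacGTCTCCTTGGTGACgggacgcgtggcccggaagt
The measured genes that share this spelling had mean ratios of -0.06 (B9D1), -0.05 (IFT57) and 0.10 (ODF2). For AHI1, TTC30A and ARL6 the means were 0.71, 0.85 and 1.61. TMEM231 also held it and was not measured.

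Other genes of the cilium were taken from lists that do not contain the 45. Of 144 measured, 45 were called higher and 9 lower by limma (18.7% and 12.1% of all genes), with a median ratio of 0.08. Among other Bardet-Biedl genes 2 of 7 were higher. LZTFL1, which regulates BBSome traffic, had log2 ratios of 1.16, 1.82 and 1.23 (mean 1.40 ± 0.15, SE, limma's adjusted p = 0.00853), and CEP19, which starts IFT entry, had a mean of 0.52. Among other IFT and motor genes 8 of 22 were higher and 1 lower. IFT22, an IFT-B GTPase, had 1.10, DYNC2LI1, a light intermediate chain of dynein-2, had 0.92, KIFAP3, which completes kinesin-2 with KIF3A, had 0.91, and the dynein light chain DYNLRB1 had 0.75. The other 13 of the 22 were not called, and the median of the list was 0.15.

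The counts of the next lists stand beside 18.7% of all genes called higher and 12.1% lower. These lists are short and were chosen with earlier results known, so nothing is read from their counts. Of other transition zone and inversin genes 8 of 19 were higher and 2 lower (median 0.16). RPGR was at 0.73, TMEM107 at 0.53, TCTN3 at 0.51 and TMEM138 at -0.44. Without loess TMEM138 was at -0.02. Of ciliary membrane and cargo genes 5 of 16 were higher and 2 lower, with RAB3IP (Rabin8, which activates RAB8) at 0.67, PDE6D (a carrier of lipid-modified proteins) at 0.59, RAB23 at 0.47 and RAB11A at 0.42. Of basal body and distal appendage genes 9 of 16 were higher (median 0.35). ODF2L had 2.28, 2.21 and 1.59 (mean 2.03 ± 0.15, SE, limma's adjusted p = 0.00696), CEP97, which caps the mother centriole and holds back ciliogenesis, had 1.58, 1.84 and 1.06, and CEP350 and PCM1 had means of 0.76 and 0.73. Of the basal body genes among the 45, none was called. Of centriole duplication genes 6 of 9 were higher, with CEP135 at 0.66, CEP152 at 0.64, PLK4 at 0.52 and CPAP at 0.45.

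Genes that act through the cilium or control it were called in both directions, beside 18.7% of all genes called higher and 12.1% lower. Nothing is read from the counts of these short lists. Of 16 Hedgehog pathway genes none was called higher and 1 lower, DHH at -0.15 (-0.03 without loess). Of 12 genes of cilium disassembly 3 were higher (NEK2 at 0.70, PLK4 at 0.52 and KIF2A at 0.18) and 1 lower (CDC20 at -0.45, which turned to 0.07 without loess). Of 12 regulators of ciliary genes 4 were higher and 2 lower. RFX3, an X-box binding activator, had 0.65, 0.85 and 0.46 (mean 0.65 ± 0.08, SE, limma's adjusted p = 0.0117) at percentile 21.1 of brightness, and RFXAP, which belongs to the RFX complex of MHC class II genes, had a mean of 0.40. E2F4 was at -0.44 and E2F5 at -0.38, and without loess they were at -0.05 and 0.01. Of 18 measured motile cilium genes 1 was higher, RSPH1 at 0.37, and their median brightness lay at percentile 19.9.

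The identity of the cells was checked on markers. Of 4 epithelial markers measured, all lay at or above percentile 80.2 of Cy5 brightness. KRT18 had a mean log2 ratio of -1.87, KRT19 of -0.89 and CDH1 of -0.43, all called lower, and EPCAM of 0.23, called higher. Without loess these means were -1.44, -0.39, -0.01 and 0.67. Of 10 markers of fibroblasts, leukocytes and endothelium, 9 had a probe, 5 were measured and 4 of these were not called, with DCN at -0.15 called lower (0.12 without loess). Their median brightness lay at percentile 18.2. The part of these markers in the cilium ratios was not tested.

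**Figure D4:**
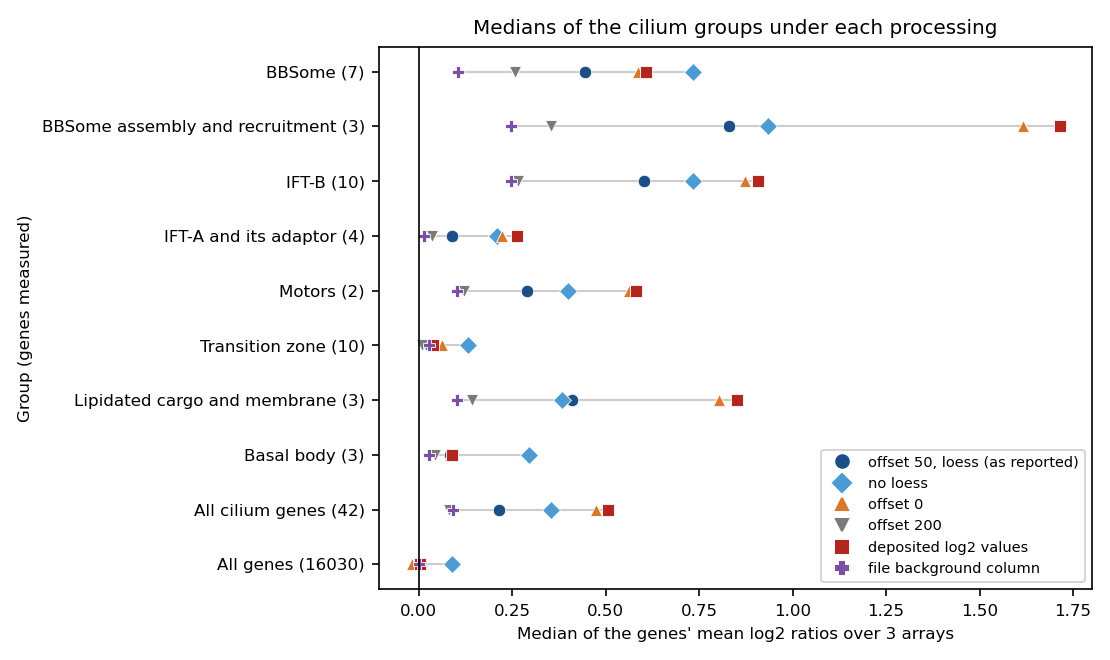
Median of the genes' mean log2 ratios (x axis) for each role of the cilium genes, for all 42 and for all genes, with the number measured in brackets, under 6 ways of processing (symbols). The BBSome and IFT-B stay above 0 under each, from 0.11 and 0.25 with the file's background column to 0.73 without loess for the BBSome and 0.91 in the deposited values for IFT-B, and the transition zone stays between 0.01 and 0.13.

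Across these ways of processing the IFT-B genes stayed above the transition zone genes. The median of the IFT-B genes was 0.60 as reported and lay between 0.25 and 0.91, whereas that of the transition zone was 0.03 and lay between 0.01 and 0.13. These genes were chosen on their ratios, and the lists without them did not show such a gap, with medians of 0.15 for other IFT and motor genes and 0.16 for other transition zone genes. The genes for BBSome assembly and recruitment had the widest range, from 0.25 to 1.71, over 3 genes. Leaving out loess moved the median of all genes to 0.09 as well.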

How the data were processed

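The authors' deposited scanner files hold spot intensity (median brightness, no background subtracted) in Cy5 and Cy3, and their value table holds log2 values, which match log2 Cy3/Cy5 once the blank-spot mean is taken off and each array is shifted to a median of 0 (by -0.86, -1.14 and -1.05). RNA was amplified to amino allyl aRNA before dye coupling. The platform's annotation named the genes, checked against RefSeq GRCh38.p14. The cilium genes kept the platform's symbol.

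In limma 3.58.1 (R 4.3.3), normexp correction of intensity used no local background and an offset of 50, and loess of each array used a span of 0.3 and gave control spots weight 0. Probes had to exceed the trimmed mean (5% off each end) of 2680 blank spots by 2 SD. Of 24460 gene probes, 86.9%, 86.4% and 87.5% passed in both channels. Probes that passed in 1 channel or both on each array were averaged per gene. Change shared by the 3 arrays was fitted with limma's intercept (two-sided). Single arrays carry no test, and their number limits precision. The fit was tested on simulated data.

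The cilium genes, the other lists and the alternatives were chosen with earlier results of these data known. All 45 genes are described, and of each other list up to 4 called genes with the largest absolute mean ratio were named. Alternatives covered background, offset, loess, filters, probe summary, fold threshold, variance model, the deposited values and each array left out.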

Additional observations from a re-analysis of the deposited data

Results flagged for a closer look

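Of the 42 cilium genes, 12 had ratios of opposite sign on the arrays. None was called in limma over the 3 arrays, but ratios on both sides of 0 make a call unlikely from the outset. The share of all genes with opposite signs was not computed. Above 0 on all 3 arrays were 28 of the 42, chosen on their ratios, beside 5632 of all 16030 genes. On Cdx1 24 h the ratio was opposite to that on Cdx1 12 h for IFT57 (0.04), IFT122 (0.06), B9D1 (-0.25), B9D2 (-0.05), TMEM67 (0.02), TMEM216 (-0.01), INPP5E (-0.02), ALMS1 (0.06) and OFD1 (0.11). On Cdx2 24 h it was opposite to both Cdx1 arrays for TULP3 (-0.02), CEP290 (-0.01) and NPHP4 (0.02). The difference between hours was not tested. Limma's contrast of Cdx2 with both Cdx1 arrays takes the gap between the Cdx1 hours as its error, so it decides nothing here. With the exception of B9D1, whose 2 probes stood at -0.29 and -0.21 on Cdx1 24 h, these values were smaller than the SD between probes, 0.174 to 0.217.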

How the results depend on the processing

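Over 588 values of single cilium genes under the alternatives, 488 kept their direction and side of the threshold, 60 lost the call, 14 gained one and 26 turned sign. The 26 belong to 13 genes, none of them among the 22 called higher. They were BBS1 (0.22), B9D1 (0.34), TMEM216 (0.33), B9D2 (0.11), KIF7 (0.030), CEP290 (-0.010) and ALMS1 (-0.13) without loess, and B9D1 (0.57), TMEM216 (0.077), NPHP4 (0.017), BBS5 (-0.0013), TULP3 (-0.0027), CEP290 (-0.021), TMEM67 (-0.020) and INPP5E (-0.046) with the file's background column. The deposited values turned IFT122 (-0.0013), TMEM67 (-0.023) and INPP5E (-0.037), blank subtraction TULP3 (-0.0034) and INPP5E (-0.011), offset 0 INPP5E (-0.0090) and the brightest probe BBS1 (0.017). With an array left out, B9D1 lay between -0.13 and 0.040, NPHP4 between -0.060 and 0.0093, TMEM216 between -0.095 and 0.00039 and INPP5E between -0.0013 and 0.047, with the sign turned without Cdx1 24 h for B9D1, without Cdx2 24 h for TMEM216 and without Cdx1 12 h for NPHP4 and INPP5E. The cilium genes at least 2-fold higher, 1, 5 and 1 on Cdx1 12 h, Cdx1 24 h and Cdx2 24 h, numbered 5, 15 and 5 without loess, 8, 14 and 9 with offset 0, 0, 3 and 0 with offset 200, 8, 15 and 10 after subtraction of the blank mean, 8, 15 and 11 in the deposited values and 10, 15 and 10 at 1.5-fold. With the file's background column they were 0 and 3 on the Cdx1 arrays. The median over the cilium genes, 0.22, was 0.35 without loess, 0.47 with offset 0, 0.081 with offset 200, 0.091 with the file's background column, 0.51 after blank subtraction and in the deposited values, 0.16 with no filter on dim probes (44 genes) and 0.28 with the brightest probe.

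Of the 22 called higher, 11 were still called with offset 200, none with the file's background column (where 1 other, B9D1, was), and 12 to 15 with an array left out (12 without Cdx1 12 h, 15 without Cdx1 24 h and 15 without Cdx2 24 h). All genes called higher, 2998, were 6372 without loess, 1908 with offset 200, 249 with the file's background column and 1391 to 2239 with an array left out. All genes called lower, 1935, were 1233 with offset 200, 266 with the file's background column and 713 to 1203 with an array left out. The share of higher among called genes was 60.8%, and 48.3% with the file's background column. Without loess 1 cilium gene differed by at least 1 between 24 h and 12 h of Cdx1, and with median centring of Cy5 1 was lower in the Cdx2 clone. Apart from fewer arrays, the cause of these shifts was not tested. Without replicates, the spread within a group is unknown. Each ratio sets the channels of 1 array against each other. Between the groups, no paired analysis was possible because each held 1 array.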
